A study of Mus musculus with 4 samples.

Results

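The actin cytoskeleton genes of mouse bone marrow cultures grown in space or on the ground were examined, from actin itself to the proteins that assemble, cap, bundle, pull on and anchor its filaments. The set was a list of 54 genes of actin assembly, non-muscle myosin and focal adhesions, and a probe set belonged to it when its only gene symbol in the platform annotation was on that list. This held for 120 of 45037 probe sets, which represent 50 of the 54 genes among 18193 genes in all. Actr2, Arpc1b, Arpc3 and Rock2 have no such probe set and were not analysed here.

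Marrow of 21 adult C57BL/6 mice over 8 weeks old was combined, freed of red cells, and sealed in glass barrels with macrophage colony-stimulating factor (M-CSF, 1.5 µg/ml), the growth factor under which marrow progenitors become macrophages. The space flight group is barrels whose incubation at 37 °C began before launch and continued aboard a space shuttle, and the ground control group is barrels run in parallel on the ground with the same temperature and activation profile. Both groups received more medium with M-CSF on culture day 6 and were lysed in guanidinium on culture day 15, flight day 14. Each group has 2 arrays, and each array holds RNA combined from 2 barrels, so the arrays are separate culture pools of the same marrow and the p-values do not cover variation between animals. The 4 pools were picked for RNA quality from 4 per group and each had an RNA integrity number of 3, a low value on that scale.

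Actin exists as single molecules (monomers) and as filaments. Profilin and thymosins bind the monomers, the Arp2/3 complex starts branched filaments when WASP and WAVE proteins activate it, capping proteins stop their growth, and cofilin takes old filaments apart. Crosslinkers, tropomyosins and myosin II turn filaments into contractile bundles that talin and vinculin couple to integrins. In macrophages this machinery drives ruffling, phagocytosis and podosomes, the small adhesion sites of these cells. Actin also reports back to the genome: MRTF coactivators bind actin monomers and, when released, work with the transcription factor SRF at a promoter motif called the CArG box.

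Because of that link, the promoter windows of the genes were searched for the CArG box, in RefSeq windows from 250 bases before to 50 bases after each gene start (GRCm38.p6). The motif is its own reverse complement, so a search covers both strands. Windows were found for 49 of the 54 genes, and 4 of these 49 genes (8.16%) had the motif, against 1.81% of the 27025 genes with a window. No window was matched for Actb, Pxn, Lsp1, Rock1 and Coro1b, so these genes were not searched. The stretches upstream of the gene start that hold it are shown 5′ to 3′ with the CArG box in capitals. They lie at chr11:120348551-120348610 (minus strand, Actg1), chr6:113377863-113377897 (plus strand, Arpc4), chr10:128493025-128493084 (minus strand, Myl6) and chr14:20929148-20929205 (plus strand, Vcl).
Actg1: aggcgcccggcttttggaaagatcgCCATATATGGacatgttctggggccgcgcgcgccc
Arpc4: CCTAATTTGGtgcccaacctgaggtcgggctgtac
Myl6: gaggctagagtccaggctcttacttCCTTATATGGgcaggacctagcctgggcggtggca
Vcl: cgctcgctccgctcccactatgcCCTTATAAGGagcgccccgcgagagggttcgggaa
A match describes letters only and does not show that SRF binds there. These 4 genes did not share a direction: Arpc4 and Myl6 had differences of 0.79 and 0.29, and Actg1 and Vcl of −0.20 and −0.55, on the scale defined next.

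Values are log2(intensity + 16) after quantile normalization, and the added 16 understates the change of dim genes. A difference is the space flight mean less the ground control mean. Each gene was read from the brightest of its single-gene probe sets and counts as measured when its mean reaches 6.40, the median over all probe sets. All 50 genes were measured, and each had both group means above that limit. None of them passed the limma test at a Benjamini-Hochberg adjusted p of 0.05 over all 11141 measured genes, where 0.0628% of genes did. At an unadjusted p under 0.05 there were 4 higher genes (8%), against 6.88% of all measured genes, and 5 lower genes (10%), against 7.32%. Both shares were near the background. The median difference of the 50 genes was −0.12, beside 0.02 over all measured genes.

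Profilin 1, Vasp, Arpc4 and Rhob were the 4 higher genes, and Arpc5, Tpm4, Cap1, Actn4 and Lcp1 the 5 lower ones. The 2 largest differences were those of Pfn1 at 1.24 and Cap1 at −1.22, or 2.36-fold higher and 2.32-fold lower. Most genes lay close to 0: the absolute difference was under 0.5 for 41 of the 50 and under 0.3 for 33. The 95% interval of the difference lay between −1 and 1 for 39 genes, and it held 0 for 41 genes. Each interval covers only the probe set used and does not exclude a larger change of the gene. Among these 39, another probe set gave 2.62 for Tmsb10, 1.15 for Actb and −1.23 for Msn. The smallest adjusted p of any member was 0.128.

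**Figure D1:**
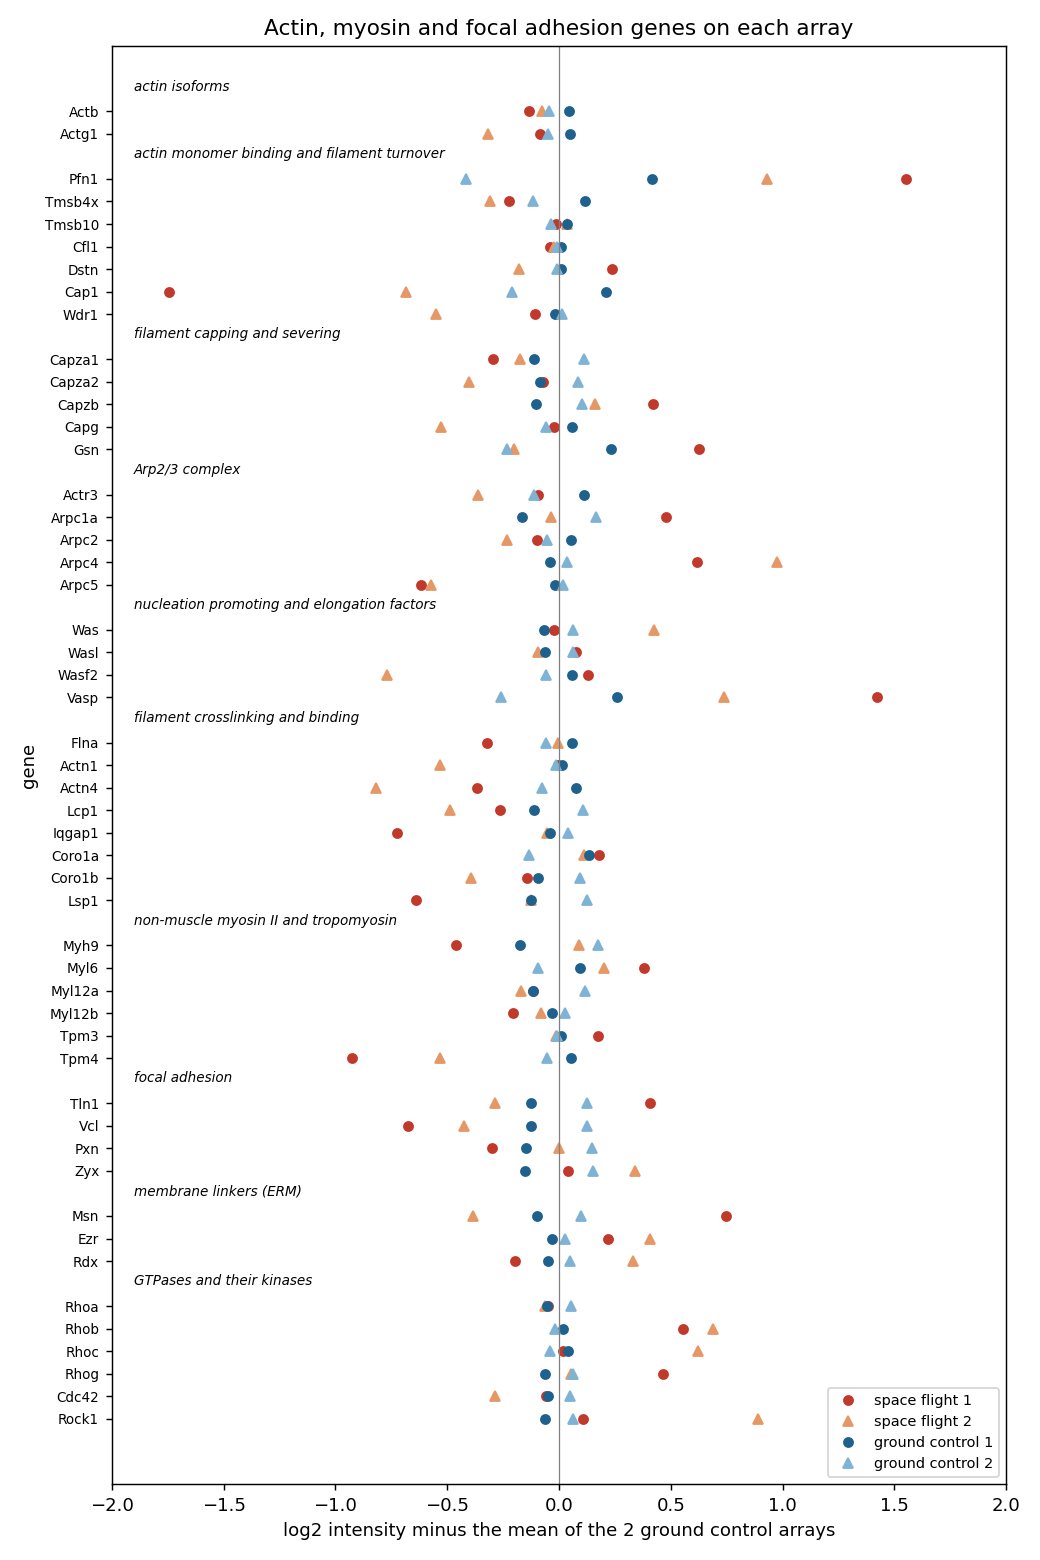
Value of each of the 50 measured genes on each of the 4 arrays, as log2 intensity minus the mean of the 2 ground control arrays, ordered by role. Most points lie within 0.5 of 0, and both space flight arrays lie more than 0.5 to the right for Pfn1, Vasp, Arpc4 and Rhob and more than 0.5 to the left for Cap1, Tpm4 and Arpc5.

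For 18 of the 50 genes, both space flight arrays read lower than both ground control arrays (36%), against 22.5% of all measured genes, and for 8 genes (16%) both read higher, against 23.0%. This lean to lower values depended on how the arrays were scaled. With the deposited values or with cyclic loess the counts were 11 below and 9 above, where 21.7% or 21.8% of all genes lay below and 23.8% or 24.1% above. With each array shifted to the same median they were 24 below and 4 above, where 32% of all genes lay below, 13.8% above, and the median of all genes moved to −0.16. The number of genes with a difference above 0 was 21 of 50, and 29, 24 and 14 under these scalings in the same order. The list as a whole therefore had no sign that held under all 4 scalings. In each, the median of the 50 genes lay below that of all measured genes. The pairs, in the same order, were −0.12 and 0.02, 0.03 and 0.04, −0.02 and 0.03, and −0.17 and −0.16. These gaps were very small under some scalings and were not tested.

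The actin genes themselves come first. Actb, the beta-actin gene, read 15.16 and 15.22 on the space flight arrays and 15.34 and 15.26 on the ground control arrays. Actg1, the gamma-actin gene, read 15.44 and 15.20 in space flight and 15.57 and 15.47 in ground control. Both genes had slightly lower space flight values with no overlap, with differences of −0.11 ± 0.11 and −0.20 ± 0.12 (SE, n = 2 arrays per group; limma adjusted p = 0.706 and 0.472), and Actg1 was at 0.06 with the deposited scaling. Before quantile normalization the groups overlapped for both genes. Deposited Actb intensities were 31591 and 53741.2 in space flight and 36064.5 and 36488.3 in ground control. Those of Actg1 were 37213.1 and 52756.4 against 42554.8 and 42352. The other Actb probe set gave a difference of 1.15, with 10.24 and 11.45 in space flight against 9.53 and 9.85 in ground control. Affymetrix marks the Actg1 probe set as one that may bind transcripts of more than 1 gene, and the coding sequences of the 2 actins are very alike.

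Among the monomer binding and turnover genes, Pfn1 encodes profilin, which hands actin monomers to growing filament ends. It read 12.52 and 11.90 on the space flight arrays and 11.39 and 10.55 on the ground control arrays. The groups did not overlap, but the ground control arrays differed from each other by 0.84. The difference was 1.24 ± 0.32 (SE, n = 2; limma adjusted p = 0.128). Cap1, cyclase-associated protein, recycles actin monomers after cofilin has released them. Its values were 10.12 and 11.18 in space flight and 12.08 and 11.66 in ground control, with space flight array 1 the lowest. The difference of −1.22 ± 0.34 (SE, n = 2; adjusted p = 0.154) came with −1.58 on the other Cap1 probe set, where the groups did not overlap either.

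The thymosins, which store actin monomers, and cofilin had small differences on the probe sets used. Tmsb10 read 15.47 and 15.52 in space flight and 15.52 and 15.45 in ground control, a difference of 0.01 ± 0.10 (SE) that was 0.32 with the deposited scaling and 0.80 with its probe sets averaged. Tmsb4x read 14.96 and 14.87 against 15.29 and 15.06, a difference of −0.27 ± 0.13 (SE) that was 0.0053 with the deposited scaling. The cofilin gene Cfl1, its relative Dstn, and Wdr1, which helps cofilin cut filaments, had differences of −0.03, 0.03 and −0.33. Other probe sets of Tmsb10 and Cfl1 differed from these: 4 of Tmsb10 gave 0.43, 1.09, 2.62 and −0.15, and 1 of Cfl1 gave 0.86. The Tmsb10 and Cfl1 probe sets used, like those of Actb and Actg1, lie near the largest normalized value, 16.01. Quantile normalization leaves arrays little room to differ there, so small differences do not show that these genes changed little. Deposited Cfl1 intensities were 30600.3 and 49118.4 in space flight and 31861.8 and 33649.9 in ground control, which overlap.

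The capping and severing genes had no member at an unadjusted p under 0.05. Capzb, the shared beta subunit of capping protein, had the largest difference, with 12.88 and 12.62 in space flight against 12.35 and 12.56 in ground control (0.29 ± 0.20, SE). The 2 further Capzb probe sets above the dim limit gave −0.14 and −0.30. The alpha subunit genes Capza1 and Capza2 had differences of −0.23 and −0.24, and the macrophage capping gene Capg of −0.27. Gsn, which severs and caps filaments, read 14.06 and 13.23 in space flight and 13.66 and 13.20 in ground control, with overlapping groups and a difference of 0.21 ± 0.26 (SE). Its 4 other probe sets above the limit gave 0.76, 0.47, 0.49 and −0.28.

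The Arp2/3 complex held subunits on both sides of 0. Arpc4, a core subunit, read 11.78 and 12.14 in space flight and 11.13 and 11.21 in ground control. Its difference was 0.79 ± 0.24 (SE, n = 2; limma adjusted p = 0.175). A dimmer Arpc4 probe set gave 0.44, again without overlap. Arpc5 read 13.28 and 13.33 in space flight and 13.88 and 13.92 in ground control. The arrays within each group were within 0.05 of each other for this gene, and the difference was −0.60 ± 0.15 (SE, n = 2; adjusted p = 0.128). Averaged with an Arpc5 probe set below the dim limit, it was −0.36. The other measured subunits lay nearer 0, with Actr3 at −0.23 and Arpc1a at 0.22. Arpc2 read 14.90 and 14.77 in space flight and 15.05 and 14.94 in ground control, a difference of −0.17 ± 0.12 (SE) that was 0.06 with the deposited scaling.

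Of the activators of filament growth, Vasp speeds elongation at filament tips and at focal adhesions. It read 10.50 and 9.82 in space flight and 9.34 and 8.82 in ground control, all space flight values above all ground control values. The difference was 1.08 ± 0.34 (SE, n = 2; limma adjusted p = 0.191). The blood cell WASP gene Was and its widely expressed relative Wasl, both Arp2/3 activators, had differences of 0.20 ± 0.29 and −0.01 ± 0.27 (SE). For Wasl the 4 values were 10.36 and 10.19 in space flight and 10.22 and 10.35 in ground control, which overlap. Wasf2, a WAVE protein behind lamellipodia, read 11.28 and 10.38 in space flight and 11.21 and 11.09 in ground control, a difference of −0.32 in which only space flight array 2 lay below the ground control arrays.

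The crosslinking and binding genes had the lowest role median, −0.32, with 7 of 8 below 0. In 5 of 8 both space flight arrays read lower, against 22.5% of all measured genes, a kind of count that varied with the scaling over the whole list. Actn4, an alpha-actinin that crosslinks filaments, read 12.99 and 12.54 in space flight and 13.43 and 13.28 in ground control, a difference of −0.59 ± 0.20 (SE, n = 2; limma adjusted p = 0.217). Lcp1, the leukocyte bundling protein L-plastin, read 14.01 and 13.78 against 14.16 and 14.38, a difference of −0.38 ± 0.16 (SE; adjusted p = 0.311), and its other probe set gave 0.04. Iqgap1, a scaffold that joins Cdc42 and Rac to filaments, read 13.66 and 14.33 against 14.34 and 14.42, with only space flight array 1 clearly low. Its difference was −0.39 ± 0.20 (SE), while its 3 other probe sets above the limit gave 0.07, 0.22 and 0.55 and the mean over all its probe sets gave 0.30. Lsp1, Actn1, Coro1b and Flna had −0.38, −0.27, −0.27 and −0.17, and Coro1a, a leukocyte coronin, 0.15 ± 0.21 (SE), from overlapping values of 12.30 and 12.23 against 12.25 and 11.98.

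In the contractile group, Tpm4 encodes a tropomyosin that lines filaments and guides myosin. It read 12.18 and 12.57 in space flight and 13.16 and 13.05 in ground control, with no overlap and a difference of −0.73 ± 0.20 (SE, n = 2; limma adjusted p = 0.151). Tpm3 read 13.72 and 13.53 against 13.55 and 13.54, a difference of 0.08 ± 0.16 (SE). Myosin II, made of the heavy chain Myh9 and light chains, was close to level on the probe sets used: Myh9 had −0.19 ± 0.21, the regulatory light chains Myl12a and Myl12b both −0.14, and the essential light chain Myl6 0.29 ± 0.36 (SE). The 4 other Myh9 probe sets gave −0.81, −0.53, −0.20 and −0.58, all of the same sign.

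At focal adhesions, vinculin reinforces the link between talin and actin. Its gene Vcl read 10.23 and 10.48 in space flight and 10.78 and 11.04 in ground control, a difference of −0.55 ± 0.27 (SE, n = 2; limma adjusted p = 0.384) without overlap. A Vcl probe set below the dim limit gave 0.34, and with both averaged the difference was −0.11. Tln1, the talin gene, read 12.17 and 11.48 against 11.64 and 11.89, a difference of 0.06 ± 0.27 (SE), so the space flight arrays lay on either side of the ground control arrays. The adaptor genes Pxn and Zyx had −0.15 and 0.19. Of the genes that tie filaments to the membrane, Ezr read 10.40 and 10.59 in space flight and 10.15 and 10.21 in ground control, a difference of 0.31 ± 0.27 (SE). Msn had 0.18 ± 0.29 and Rdx 0.07 ± 0.24 (SE). Each of the 3 had another probe set above the limit on the opposite side of 0, at −0.11 for Ezr, −1.23 for Msn and −0.08 for Rdx. Msn was split between the space flight arrays, at 14.34 and 13.20 against 13.49 and 13.69 in ground control.

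The last role held GTPases, which act as switches of actin assembly, and the kinase Rock1, which drives myosin contraction. Rhob, a GTPase gene that cells induce quickly, read 11.55 and 11.68 in space flight and 11.01 and 10.97 in ground control. Both arrays of each group lay close together, and the difference was 0.62 ± 0.24 (SE, n = 2; limma adjusted p = 0.268). Rhoa, which acts on myosin through the ROCK kinases, read 14.03 and 14.01 against 14.02 and 14.13, a difference of −0.05 ± 0.14 (SE). Rhoc, Rhog and Cdc42 had 0.32, 0.26 and −0.17. Rock1 read 12.21 and 12.99 against 12.04 and 12.16, a difference of 0.50 ± 0.26 (SE), with space flight array 2 far above the rest and other probe sets at −0.25, −0.13 and 0.05.

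**Figure D2:**
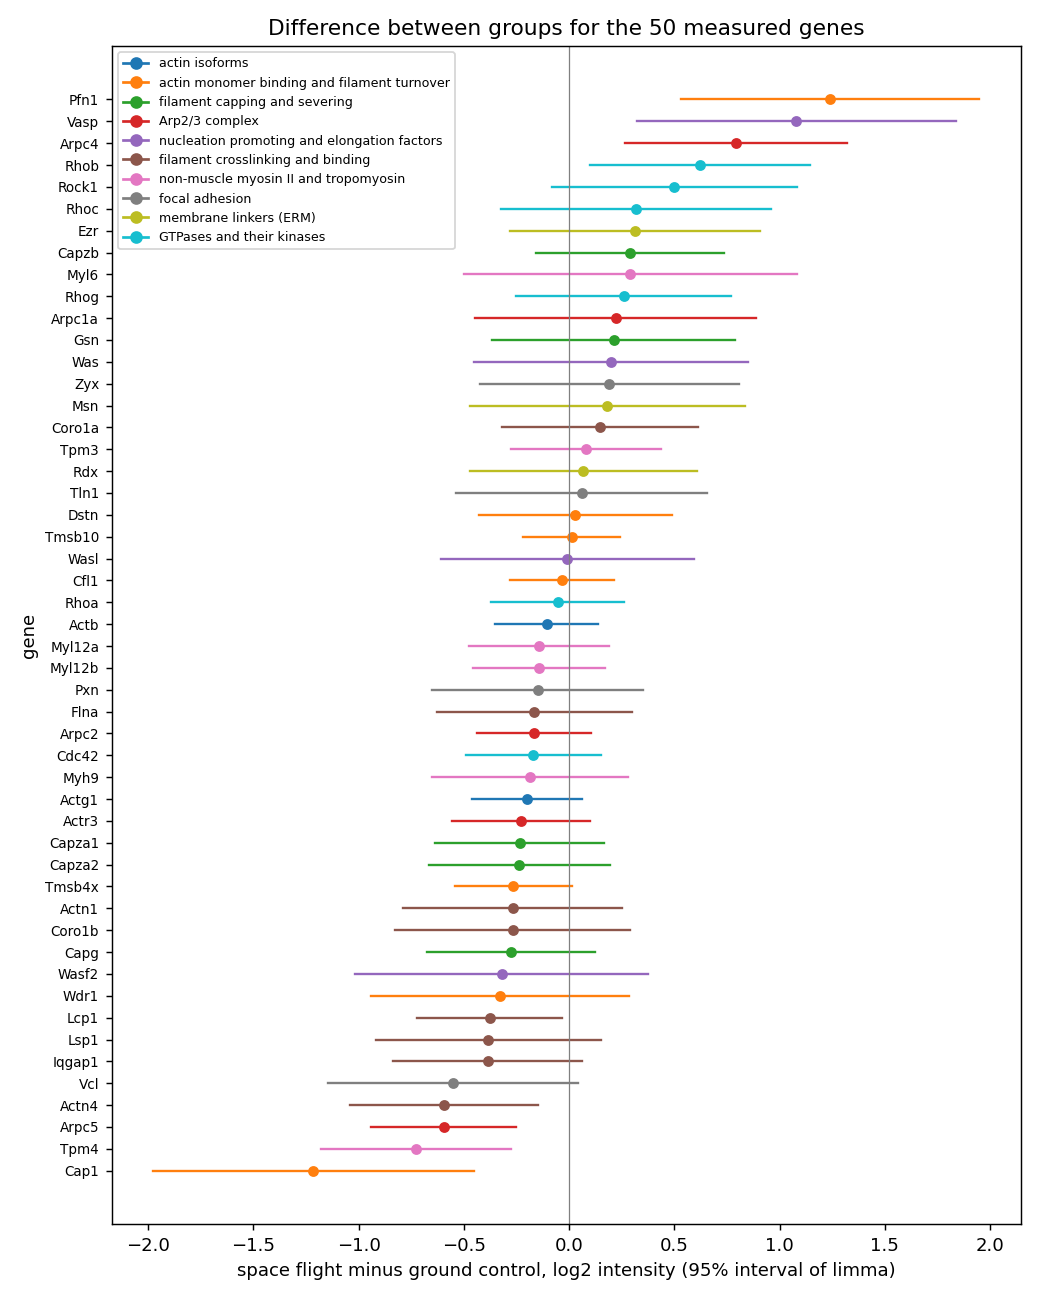
Difference between space flight and ground control for each of the 50 measured genes in log2 units, with the 95% interval from limma and colours for roles. Of the 50 intervals 41 cross 0, and Pfn1 at 1.24 and Cap1 at −1.22 mark the ends.

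The 9 genes under an unadjusted p of 0.05 kept their sign in the 15 alternatives fitted by gene. Much of this was fixed in advance. Their groups did not overlap, so leaving out 1 array could not reverse the sign. The dim filter, trend and block settings left the difference itself unchanged. Leaving out a space flight array brought some members past the threshold, in fits that give the remaining single array the spread of the opposite group and in which the moderated test has more degrees of freedom (28.2 and 29, against 10.4). Without space flight replicate 1 these were Pfn1 (0.93), Arpc4 (0.97) and Rock1 higher and Actn4 (−0.82) lower. Without space flight replicate 2 they were Pfn1 (1.55), Vasp (1.42) and Msn higher and Cap1 (−1.75), Tpm4 (−0.92), Iqgap1 (−0.72) and Arpc5 (−0.62) lower. The counts over all genes then were 1080 and 741, so many other genes passed as well. The other values of these genes were smaller: without space flight replicate 1, Cap1 had −0.68, Vasp 0.74, Tpm4 −0.53 and Iqgap1 −0.05, and without space flight replicate 2, Actn4 had −0.37 and Arpc4 0.62. Only Pfn1 passed in both fits, and none passed without a ground control array.

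The space flight arrays differed more from each other than the ground control arrays did. The gap between replicates was larger in space flight for 38 of the 50 genes (76%), as for 62.6% of all measured genes, with a median gap of 0.31 against 0.13 in ground control. Msn (1.14), Cap1 (1.06), Wasf2 (0.90), Gsn (0.83) and Rock1 (0.78) had the widest gaps in space flight. The 3′ to 5′ signal ratio of the Actb control probe sets, a sign of RNA quality, was 3.08 and 4.91 on space flight arrays 1 and 2 and 2.30 and 2.84 on ground control arrays 1 and 2. For the Gapdh control it was 4.09 and 15.2 against 4.13 and 3.33. The part of RNA quality in the differences was not tested.

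**Figure D3:**
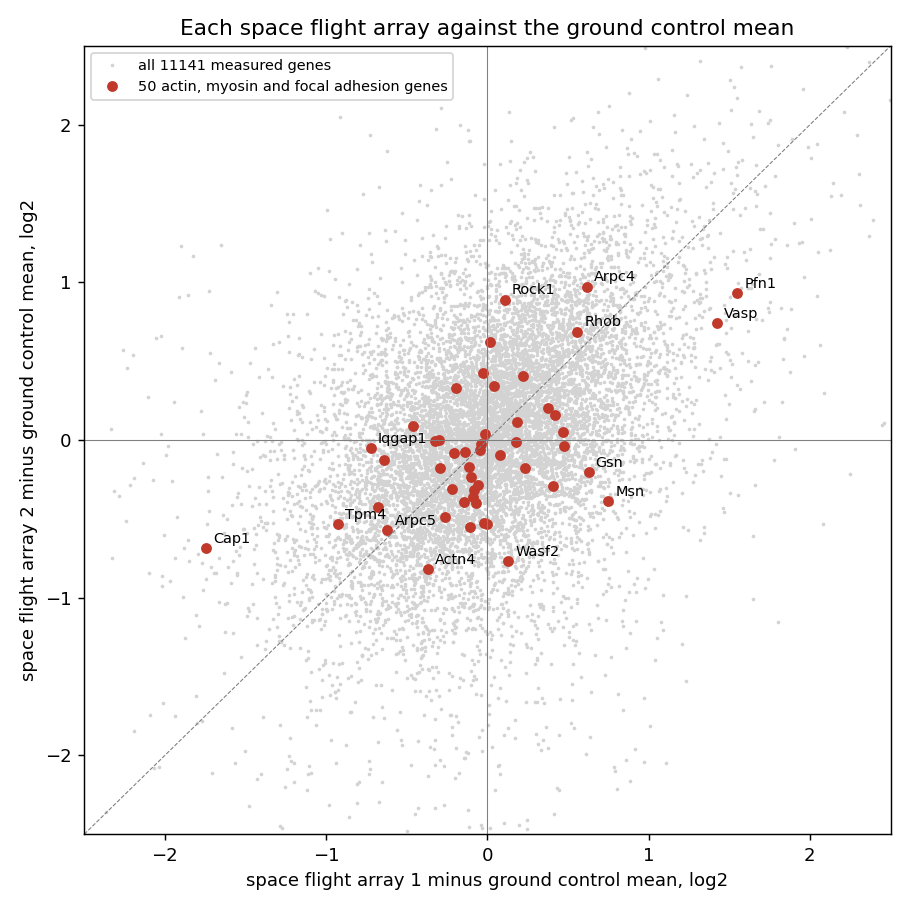
Each space flight array minus the ground control mean in log2 units, array 1 on the horizontal and array 2 on the vertical axis, for all 11141 measured genes (grey, 80 of them beyond the axes) and the 50 genes (red). Pfn1, Vasp, Arpc4 and Rhob lie high on both arrays and Cap1, Tpm4, Arpc5 and Actn4 low on both, while Msn lies above 0 on array 1 and below 0 on array 2.

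Probe sets of the same gene often disagreed. Of the 33 genes with several probe sets above the dim limit, 18 (54.5%) had differences of both signs, as had 49.9% of all such genes on the array. When every probe set was tested on its own, 107 member probe sets entered and none passed the adjusted threshold, where 0.0488% of all 22519 did. At an unadjusted p under 0.05, 12 of the 107 were higher (11.2%, against 5.43% of all) and 7 were lower (6.54%, against 6.58%). Of the 12 higher ones 8 were not the brightest of their gene: 3 of Tmsb10 and 1 each of Actb, Cfl1, Gsn, Iqgap1 and Tpm3. Cap1, Arpc4, Myh9, Actr3, Capza1, Capza2 and Rhoc were among the 15 genes whose probe sets all had the same sign.

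**Figure D4:**
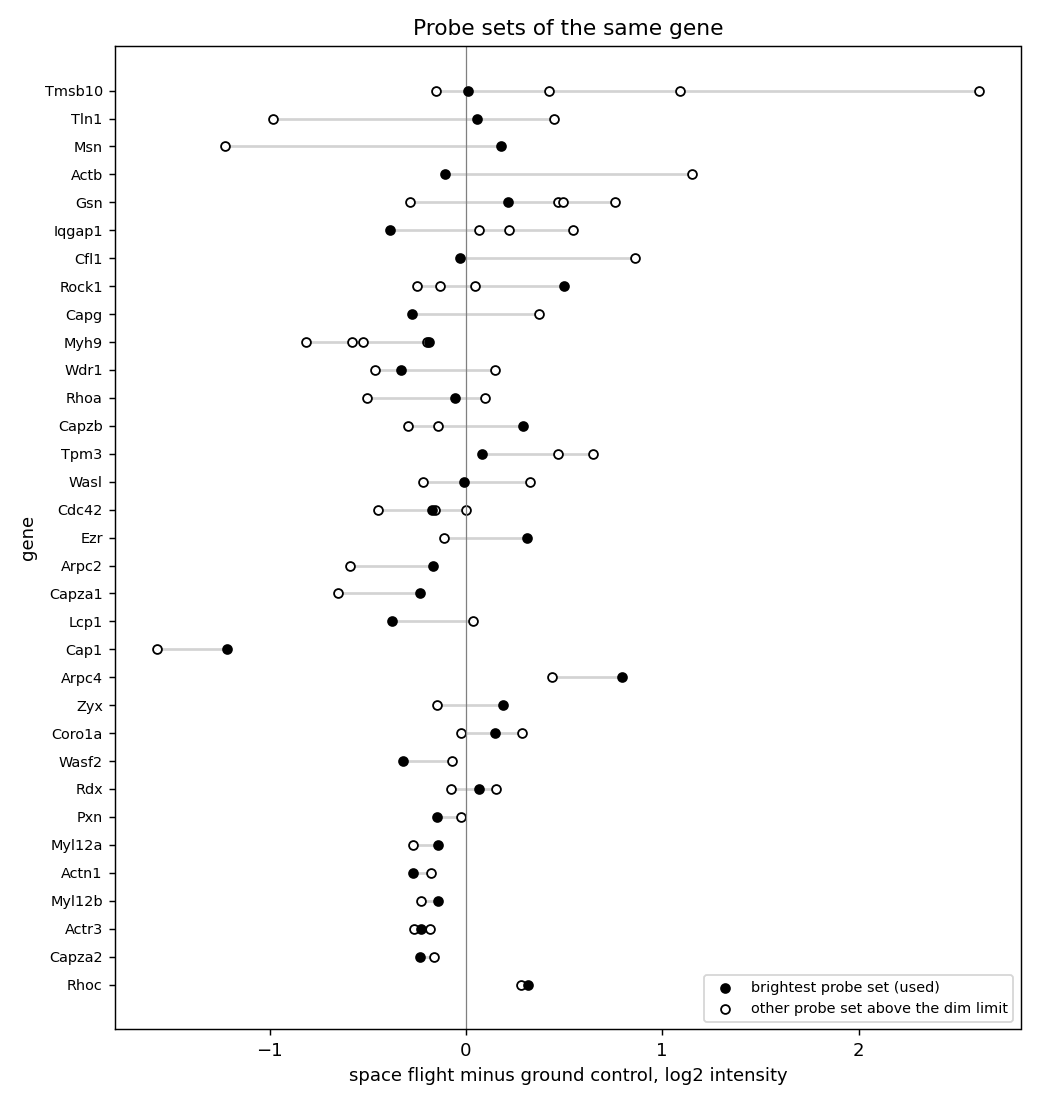
Differences of all probe sets above the dim limit for the 33 genes with several, in log2 units, with the brightest one filled. Tmsb10 spans −0.15 to 2.62 and Actb −0.11 to 1.15, while both probe sets of Cap1 lie below −1 and both of Arpc4 above 0.

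Related genes were also compared within each array. These 15 pairs were chosen after values were seen, and with 2 against 2 arrays an exact two-sided permutation test cannot go below p = 0.333, so they are described without a test. Arpc5 and Arpc5l encode alternative forms of the same Arp2/3 subunit, and only Arpc5 was on the list. Arpc5l read 12.62 and 12.87 in space flight and 12.03 and 12.11 in ground control, a difference of 0.68 ± 0.20 (SE, n = 2; limma adjusted p = 0.171), and another of its probe sets gave 0.66 and a dimmer one −0.15. Arpc5l minus Arpc5 was thus 1.18 and 1.38 on the space flight arrays above its ground control mean, where the ground control arrays lay 0.02 on either side. Tpm3 minus Tpm4 stood 1.10 and 0.52 above, Vasp minus its relative Evl 0.89 and 0.73, and Rhob minus Rhoa 0.60 and 0.75. The order within a pair sets its sign. Arpc5, Tpm4, Vasp and Rhob were already named for a small p, so these pairs are not separate evidence. Myl12a minus Myl12b, Capza2 minus Capza1 and Actb minus Actg1 overlapped between groups.

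**Figure D5:**
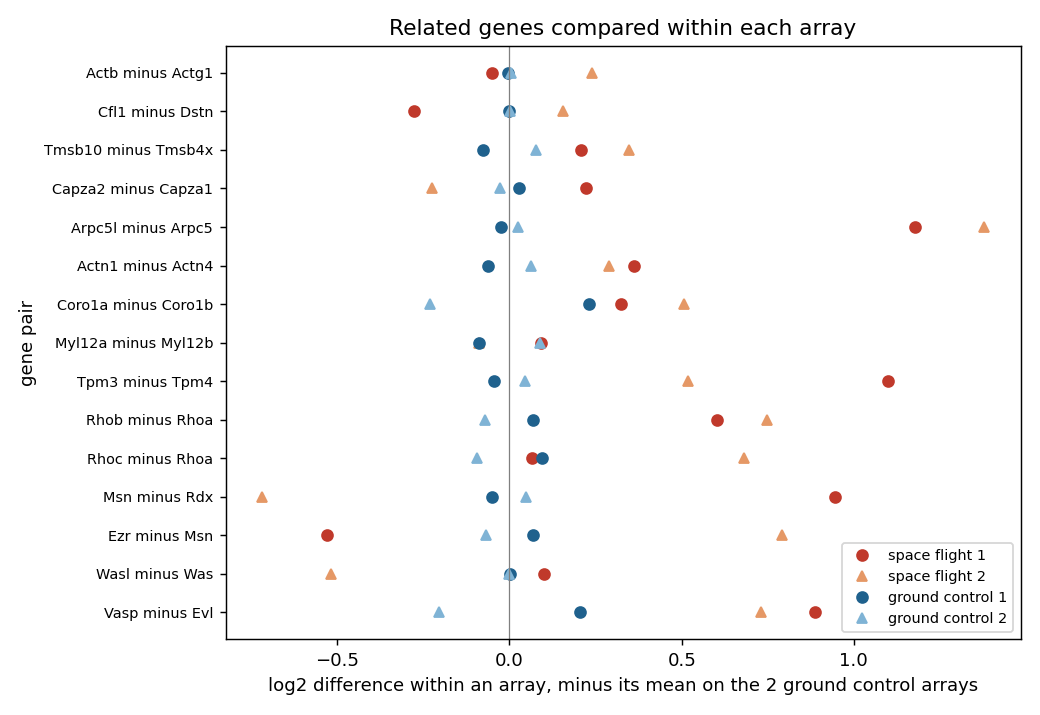
Log2 difference between related genes within each array, minus its mean on the 2 ground control arrays, for 15 pairs. Arpc5l minus Arpc5 lies at 1.18 and 1.38 on the space flight arrays, and Myl12a minus Myl12b stays within 0.1 of 0 on all 4 arrays.

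Genes of the same pathway outside the list were taken from 9 lists of formins, WAVE and cortactin proteins, cofilin regulators, Rac and Pak regulators with related genes, further myosins, bundlers and adhesion proteins, and SRF factors. Of 103 listed genes 84 were measured, and none passed the limma test at the adjusted threshold. At an unadjusted p under 0.05, 6 were higher (7.14%) and 15 lower (17.9%), against 6.88% and 7.32% of all measured genes, and their median difference was −0.17. Arhgap25, which turns off Rac, had the smallest adjusted p (0.0910) and read 10.24 and 10.29 in space flight and 11.36 and 11.71 in ground control. Its difference was −1.27 ± 0.26 (SE), with 0.22 on a dimmer probe set. Marcksl1, a membrane-bound actin binder, had 2.00 ± 0.48 (SE), with 10.6083 and 8.9998 against 7.64 and 7.96, and 1.06, 1.10 and 0.68 on 3 other probe sets. Mrtfb, a coactivator of SRF that actin monomers hold back, had −1.03 ± 0.26, from 11.44 and 10.85 against 12.19 and 12.17, with −1.81 and 0.42 on 2 others (SE). The adhesion gene Tns3 had −0.92 ± 0.23 (SE), from 13.14 and 12.44 against 13.80 and 13.62, with −0.49 on its other probe set. Srf and Mrtfa had 0.52 ± 0.32 and −0.06 ± 0.30 (SE).

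Blood cells differ in how much of these genes they express, and markers of several cell types differed between the groups. Intensities were summed over all markers of a list that had a probe set, those below the dim limit included. Summed intensities of macrophage markers (11 of 12 measured) ran from 118600 to 127800 in space flight and from 157300 to 158000 in ground control. Those of neutrophil markers (12 of 15, Cxcr2 below the limit) ran from 86660 to 114600 and from 49750 to 52260, and those of erythroid markers (9 of 11) from 13200 to 16630 and from 7618 to 9203. The markers of a list did not all go the same way. Of the macrophage markers 3 of 11 had differences above 0 (Mertk, Cd14 and Msr1, at most 0.33). Of the erythroid markers 3 of 9 had differences below 0 (Epor, Gata1 and Tfrc) beside 2.17 for Slc4a1. Among neutrophil markers 1 of 12 did (Mmp8, −0.64). Dendritic and mast cell markers (5 of 9, with Flt3, Siglech, Zbtb46 and Cpa3 below the limit) ran from 3561 to 4382 and from 2916 to 3149. Of these 5, 2 had differences below 0 (Itgax, −0.76, and Kit, −0.08). Ranges overlapped for megakaryocyte and platelet markers (7 of 9), at 9770 to 11020 and 10250 to 11320, where Ppbp and Itga2b had differences of 1.27 and 1.28 and Pf4 of −0.04. They also overlapped for stromal and muscle markers (5 of 11, with Col1a1, Tagln, Cnn1, Myh11, Des and Lum below the limit), at 3348 to 4107 and 3672 to 3950, and for lymphocyte markers (2 of 8, with Cd3e, Cd3g, Cd79b, Ms4a1 and Ncr1 below the limit), at 399 to 535 and 337 to 441. In these bulk cultures fewer cells of a type and less RNA per cell cannot be told apart, and the part of cell makeup in the differences was not tested.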

How the data were processed

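Affymetrix 3′ arrays were used on RNA amplified in 2 rounds, per the labels' protocols. The deposited intensities come from GCOS (version not stated), per the submitters' processing notes, and the summarising algorithm is not given in the sources used here. The mean after trimming 2% at each end of the deposited intensities was 500.004 on each array. From these, log2(value + 16) was computed in R 4.3.3 without the 64 control probe sets and quantile normalized, since array medians differed by up to 0.384. Of 45037 probe sets, 34945 had 1 symbol, 932 several and 9160 none in the platform annotation. RefSeq gene identifiers matched 34741 of the single symbols and changed 0.

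Groups were compared across all measured genes with limma 3.58.1 (lmFit, eBayes with an intensity trend, two-sided) and Benjamini-Hochberg adjustment, with 2 residual and 10.4 moderated degrees of freedom. The procedure was tested on simulated data with changes larger than that of any member. That test gives no error rate for changes of the size seen among the members. Errors are limma's standard errors, and the number of arrays limits precision. Members, roles, lists and tests were chosen with earlier results of these data known. Genes described with their array values were the 12 with the smallest p, the largest difference in each role, the smallest in each role of 4 or more, and 4 other pathway genes of smallest p. Array values of other genes, and the related pairs, were added after values were seen. Alternatives covered scaling, pseudocount, the dim filter, the choice of probe set, the trend, a block and single arrays left out.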

Additional observations from a re-analysis of the deposited data

How the results depend on the processing

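The replicate numbers are not known to pair the cultures, and deviations of the same-numbered arrays correlated at 0.057. With the replicate number as a replicate block, 433 genes passed in place of 7, among them 1 higher (Pfn1) and 3 lower (Cap1, Tpm4 and Arpc5) members and 6 other pathway genes. Without 1 array, 0 to 3 members were higher and 0 to 4 lower, 0 to 11 other pathway genes passed, and 7 to 1080 genes passed in all. No member passed under the other alternatives. Over all genes 16 passed with the deposited scaling, 21 with cyclic loess, 12 with a pseudocount of 64, 25 with both group means above the dim limit, 25 without probe sets named _s_at or _x_at and 11 with every probe set tested, and 0 with arrays shifted to 1 median, with probe sets averaged, with no dim filter or with no trend. The members' median of −0.12 was −0.17 with 1 median, −0.021 with cyclic loess, 0.032 with the deposited scaling and −0.11 to −0.025 without 1 array.

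Of 23 named members 11 had a reversed sign somewhere, and none of them was called there. The deposited scaling gave 0.0053 for Tmsb4x, 0.062 for Actg1, 0.062 for Arpc2 and 0.10 for Rhoa. A shift to 1 median gave −0.074 for Coro1a, −0.027 for Tpm3 and −0.18 for Tln1. Cyclic loess gave 0.0096 for Wasl and 0.011 for Rhoa. Averaged probe sets gave 0.30 for Iqgap1, 0.30 for Wasl and −0.16 for Tln1. Leaving out _s_at and _x_at probe sets gave −0.15 for Tmsb10 and 0.098 for Rhoa. Without 1 array, values ran from −0.025 to 0.049 for Tmsb10, from −0.20 to 0.63 for Gsn, from −0.093 to 0.076 for Wasl, from −0.014 to 0.18 for Tpm3 and from −0.29 to 0.41 for Tln1.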

Other observations

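The Affymetrix control probe sets sample Actb at 3 places along its transcript. Deposited intensities at the 3′ end were 43516 and 80937 in space flight and 43925 and 51388 in ground control, which overlap. At the 5′ end they were 14131 and 16476 in space flight and 19128 and 18091 in ground control, so that both space flight arrays read lower. At the middle they were 24376 and 38641 against 30332 and 30324, with space flight arrays on either side.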
